A study of Mus musculus with 12 samples.

Results

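Imprinted genes were followed across naïve and primed mouse embryonic stem cells (ESCs) carrying WT or catalytic mutant TET2. The 42 listed genes were chosen by symbol as known imprinted genes, with earlier results of these data known. Whether each is expressed from a single parental copy in these cells was not measured. Of the 42 genes, 40 were found among the 26061 genes of the expression table. Kcnq1ot1 and Peg13 had none under those symbols and are not analysed here. After a filter on low values described below, 37 were tested, and Airn, Magel2 and Zim1 were not.

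Genomic imprinting restricts transcription of a gene to the copy inherited from the mother or from the father. It rests on DNA methylation laid down in the egg or the sperm at control regions, which survives the wave of demethylation after fertilisation because ZFP57 binds the methylated motif TGCCGC and recruits TRIM28, SETDB1 and DNA methyltransferases. Many imprinted genes act in fetal growth, the placenta or the brain, and they lie in clusters that share a control region. Read counts here sum both parental copies, so allele-specific expression was not measured.

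The data are 12 poly(A) RNA-seq libraries of Tet2 KO ESCs, stably rescued through a PiggyBac transposon with either WT TET2 or a catalytically inactive mutant. All were infected with lentivirus carrying an shRNA against Setdb1, and puromycin was applied for 3 days, starting at 48 hours, so nothing below measures the response to SETDB1 depletion. Each rescue was grown without feeders either in 2i medium with LIF (inhibitors of MEK and GSK3, here called naïve) or in serum with LIF (primed), with 3 libraries in each of the 4 groups. The sources used here do not say whether replicates were separate cultures, so p-values measure the spread between these libraries, which may be technical, nor how many lines were made per construct, so the form of TET2 cannot be told apart from the cell line.

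Expression is given as the authors' variance-stabilised value on a log2 scale, on which a gene without reads stands at 3.81 in every library. Because the scale compresses low values, whole read counts recovered from it are given beside low genes. Libraries held between 8066662 and 21335933 reads in genes. In the text, values follow replicates 1, 2 and 3 of a group, differences are naïve minus primed or WT minus mutant, SE is the standard error, and adjusted p comes from limma with Benjamini-Hochberg adjustment over the 14185 genes tested, those averaging 1 or more above that floor. A gene was called at an adjusted p under 0.05.

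Setdb1, the target of the shRNA, stood at 7.73, 7.51 and 8.21 in naïve WT, 7.56, 7.46 and 8.04 in naïve mutant, 8.19, 8.22 and 8.40 in primed WT and 7.52, 8.26 and 8.55 in primed mutant libraries. The media overlapped within each line and the lines within each medium, and Setdb1 was not called in any comparison. Naïve mutant libraries all lay below primed WT libraries, a pair of groups that was not compared. Tet2 stood at 12.73, 13.09 and 14.00 in naïve WT, 10.60, 10.81 and 11.95 in naïve mutant, 14.81, 14.58 and 15.09 in primed WT and 12.50, 13.20 and 13.27 in primed mutant libraries. All WT libraries lay above all mutant libraries of the same medium, and all primed above all naïve libraries of the same line. Tet2 was higher in the WT line by 2.16 in naïve ESCs (SE 0.34, adjusted p = 0.0154) and by 1.84 in primed ESCs (SE 0.34, adjusted p = 0.0297). The naïve call was lost without naïve WT replicate 3 or naïve mutant replicates 1 or 2, at 1.79 to 2.0 (adjusted p = 0.0809 to 0.132), without the filter (adjusted p = 0.238) and with the 6 naïve libraries alone (adjusted p = 0.0526). The primed call was lost without any of primed WT replicates 1 to 3 or primed mutant replicates 1 or 2, at 1.59 to 1.96 (adjusted p = 0.0512 to 0.151), and without the filter (adjusted p = 0.268). Reads of the construct and of the disrupted endogenous gene are counted together, so this level is no check of the knockout. For protein, the paper reports similar amounts of WT and mutant TET2 in the rescue lines by Western blot.

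Core pluripotency markers were summed first. Pou5f1, Sox2, Nanog, Sall4 and Lin28a together made up 2872 to 3716 RPM (reads of a gene relative to library depth), with Nanog or Pou5f1 the most abundant. Within this sum Lin28a (-3.07 and -3.38) and Sall4 (-1.19 and -1.18) were called lower in naïve ESCs in the WT and mutant lines. Nanog was higher in naïve than in primed ESCs of the WT line (0.57, adjusted p = 0.0357), a call lost without the filter (adjusted p = 0.144), with quantile normalization (adjusted p = 0.0968) and without naïve WT replicates 1 or 2 or primed WT replicates 1 or 3, at 0.48 to 0.57 (adjusted p = 0.0713 to 0.146). Its difference between media in the mutant line was 0.40 (adjusted p = 0.138). The listed markers of primed or formative epiblast (6 genes) summed to 65.3 to 197 RPM in naïve libraries and to 596 to 1100 in primed libraries, with Dnmt3b or Dnmt3l the most abundant and Fgf5 at 0 in all 6 naïve libraries. Lef1, on the same list, went the other way, higher in naïve ESCs by 1.47 (adjusted p = 0.00143) and 0.86 (adjusted p = 0.0358) in the WT and mutant lines. The latter call was lost without the filter (adjusted p = 0.157) and without naïve mutant replicates 2 or 3 or primed mutant replicates 1 or 3, at 0.59 to 0.93 (adjusted p = 0.0526 to 0.159). The 10 listed naïve markers, of which 9 were found, summed to 1132 to 1478 RPM in naïve and 1194 to 1653 in primed libraries, with Esrrb, Zfp42 or Fgf4 the most abundant. Single markers on it went both ways. Prdm14 (1.64 and 1.63) and Tcl1 (1.10 and 0.94) were called higher in naïve ESCs in both lines, and Zfp42 (-0.94 and -1.29) and Nr0b1 (-0.78 and -0.85) lower.

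Sums over markers of differentiated cells were carried by a few genes. Neural genes (3 of 4 found) summed to 93.1 to 156 RPM in naïve and 196 to 279 in primed libraries, with Nes or Tubb3 the most abundant and none at 0. Tubb3 (-1.84 and -1.54) and Pax6 (-1.39 and -1.37) were called lower in naïve ESCs in both lines, while Nes was at 0.30 and 0.51 and not called. The 6 mesoderm markers summed to 3.08 to 4.25 in naïve and 10.2 to 17.4 in primed libraries, with Eomes the most abundant and 1 to 3 of T, Mixl1, Mesp1, Kdr and Hand1 at 0 in each library, while T had 2 to 17 reads in naïve and 0 to 5 in primed libraries. Endoderm markers (8 genes) summed to 2.33 to 6.15 and 4.90 to 8.07, with Dab2, Gata4 or Sox17 the most abundant, Afp at 0 throughout and Foxa2 at 0 to 5 reads in naïve and 0 to 1 in primed libraries. For trophoblast markers (5 of 6 found) the sums were 0.567 to 3.22 and 2.60 to 6.32, with Krt7 the most abundant in naïve and Gcm1 or Krt7 in primed libraries. Krt7 was lower in naïve ESCs in the WT line (-0.87, adjusted p = 0.0105), a call lost without the filter (adjusted p = 0.0520), and was at 0.52 (adjusted p = 0.106) in the mutant line, with an interaction of -1.40 (adjusted p = 0.976). Gcm1 was at 0 in all naïve and at 16 to 52 reads in primed libraries, and Prl3d1 was at 0 throughout. Fibroblast markers (6 genes) were low in both media, at 5.58 to 7.75 and 2.48 to 4.90, with Col1a2, Col3a1 and Postn at 0. The most abundant was Thy1 or Lum in naïve and Lum in primed libraries. Thy1 was called higher in naïve ESCs in both lines (0.85 and 1.40). Lum was not called in the WT line (0.32) and was called lower in the mutant line (-0.95). This call was lost without the filter (adjusted p = 0.0894) and without naïve or primed mutant replicate 1, at -0.87 to -0.72 (adjusted p = 0.0525 to 0.0927). Several of these sums differ by medium, and their part in the differences below was not tested. Fewer cells of a kind and less RNA per cell cannot be told apart in bulk libraries.

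The comparison of media asks how imprinted genes are expressed in the naïve state relative to the primed state, within each rescue line. Most of the listed members that differed were lower in naïve ESCs. The members were chosen with earlier results of these data known. The 24 further imprinted genes tested, described below, had a median difference of 0.07 in the WT line and -0.14 in the mutant line. In the WT line 23 of 37 tested members were called, against 35.9% of all genes tested. Unadjusted p was under 0.05 for 25 (45.7% of all genes). Of the called members, 5 were higher in naïve ESCs (18.6% of all genes) and 18 were lower (17.3% of all genes). In the mutant line 22 of 37 were called (35.2% of all genes), 5 higher (18.3%) and 17 lower (16.9%). By unadjusted p under 0.05 they numbered 26 (45.0%). The median difference over the 37 members was -0.66 in the WT line and -0.68 in the mutant line, where the median over all genes tested was 0.01 and -0.01.

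The lines share no library in this comparison, but same-numbered naïve libraries correlated between lines (r = 0.30 to 0.59), so the lines are not fully independent. Both lines called 20 members, all with the same sign, which is 87% of the calls in the WT line and 90.9% of those in the mutant line. Of all genes, 1940 were called higher and 1756 lower in both lines, among 5095 calls in the WT line and 4993 in the mutant line. Of the 20 members, 4 were higher in naïve ESCs (13.7% of all genes were higher in both lines), namely Plagl1, Cd81, Slc22a18 and Commd1. The other 16 were lower (12.4% of all genes). Calls lower by more than 1 on the log2 scale numbered 13 in the WT line (5.87% of all genes) and 10 in the mutant line (4.9% of all genes). Naïve and primed libraries did not overlap for 25 members in the WT line (50% of all genes) and 23 in the mutant line (43.5% of all genes). H19, Sgce, Dlk1 and Rtl1 lay below the filter level in 1 or both naïve groups. The naïve libraries of H19, Sgce and Rtl1 averaged below that level, so these 3 genes were tested because of their primed level. Without them 20 of 34 members were called in each line, 5 higher and 15 lower. The medians, the calls shared by both lines, the calls lower by more than 1 and the counts without overlap include these 3 genes. Those figures were not repeated without them.

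**Figure D1:**
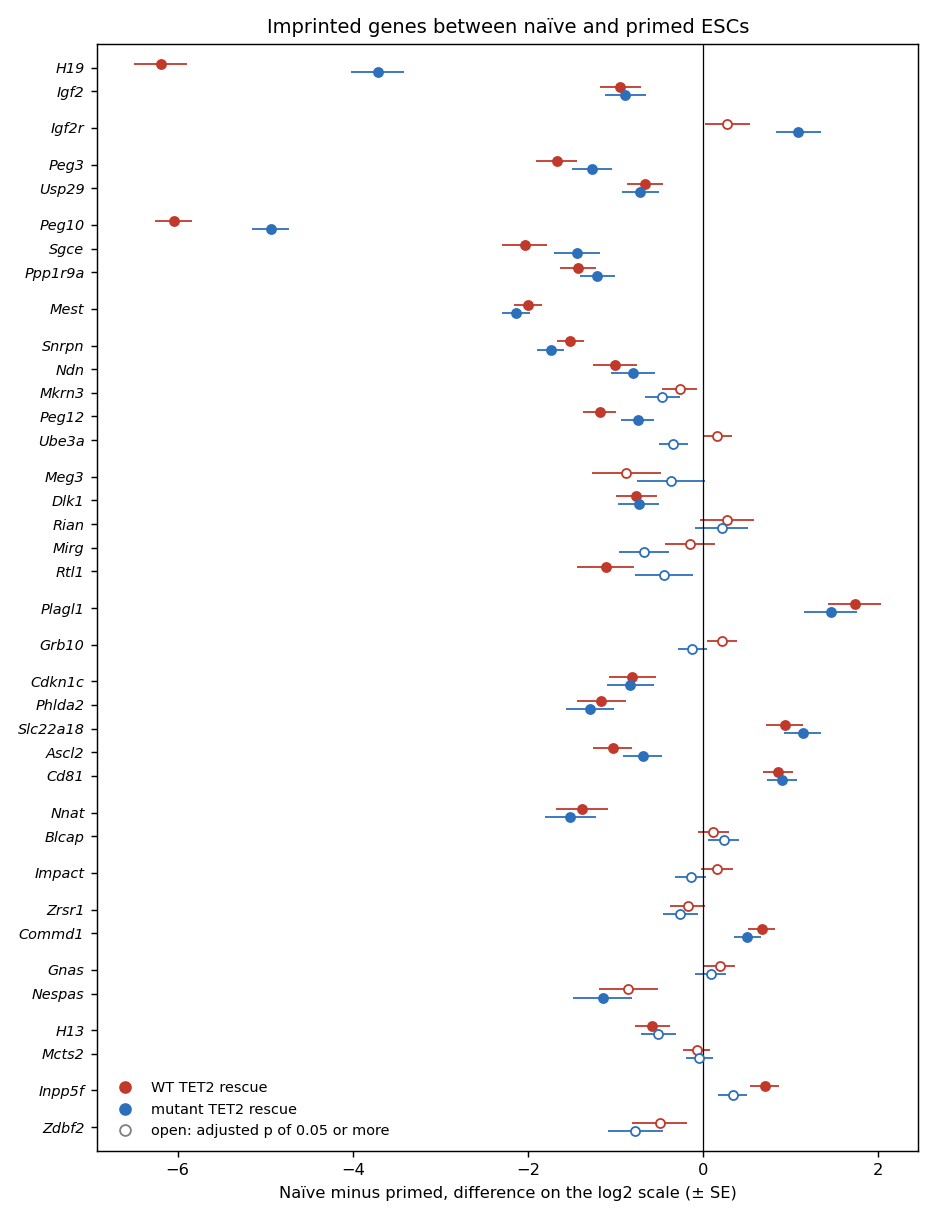
Naïve minus primed difference (horizontal axis, log2 scale) of the 37 tested imprinted genes, ordered by cluster, in the WT (red) and mutant (blue) TET2 rescue lines; points are limma estimates from 3 libraries per group, bars are ± SE, and open points had an adjusted p of 0.05 or more. Peg10 and H19 lie furthest to the left, at -6.04 and -6.19 in the WT line, and Plagl1 furthest to the right at 1.73.

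The lower calls were counted by the parental copy that each gene is known for, which was not measured in these cells. Of 20 paternally expressed genes tested, 14 were called in the WT line (35.9% of all genes), 12 of them lower in naïve ESCs (17.3% of all genes). In the mutant line 13 were called (35.2%), also 12 of them lower (16.9%). Of 17 maternally expressed genes tested, 9 were called in the WT line (35.9%), 6 of them lower (17.3%), and 9 in the mutant line (35.2%), 5 of them lower (16.9%). These counts include Sgce and Rtl1 (paternal) and H19 (maternal), tested because of their primed level, and were not repeated without them. With these genes included, the median difference was -0.90 and -0.76 in the WT and mutant lines for paternally expressed genes, and 0.12 and -0.34 for maternally expressed genes. No test compared the 2 classes.

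The cluster on mouse chromosome 6 around Peg10 was lower in naïve ESCs in all 3 members tested. Peg10, a paternally expressed gene derived from a retrotransposon gag-pol and needed for the placenta (chr6:4697306-4710514, mm9, plus strand), stood at 5.84, 5.80 and 5.70 in naïve WT, 5.70, 5.68 and 5.86 in naïve mutant, 12.04, 11.82 and 11.61 in primed WT and 10.43, 11.27 and 10.35 in primed mutant libraries. The 6 naïve libraries held 25 to 58 reads each and the 6 primed libraries 980 to 5859, with no overlap. Peg10 was lower in naïve ESCs, with a log2 difference of -6.04 in the WT line (SE 0.21, adjusted p = 2.4e-11) and -4.94 in the mutant line (SE 0.21, adjusted p = 3.16e-10). In normalised reads the primed mean was 119 times the naïve mean in the WT line and 57.4 times in the mutant line.

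Sgce, the epsilon-sarcoglycan gene, starts beside Peg10 on the opposite strand (chr6:4624350-4697204) and is also paternally expressed. It stood at 4.39, 5.22 and 4.67 in naïve WT, 4.59, 5.15 and 4.52 in naïve mutant, 7.10, 6.87 and 6.44 in primed WT and 6.43, 6.33 and 5.82 in primed mutant libraries. Naïve libraries held 2 to 15 reads and primed libraries 30 to 115, without overlap. The difference was -2.04 in the WT line (SE 0.26, adjusted p = 1.83e-05) and -1.44 in the mutant line (SE 0.26, adjusted p = 5.03e-04), and limma-voom on the recovered reads, which does not compress low values, gave -3.63 and -3.04. Ppp1r9a, which encodes the actin-binding protein neurabin and is maternally expressed (chr6:4853004-5115661), stood at 6.15, 5.72 and 6.35 in naïve WT, 6.17, 6.08 and 6.35 in naïve mutant, 7.31, 7.65 and 7.54 in primed WT and 7.12, 7.61 and 7.49 in primed mutant libraries. Every primed library lay above every naïve library, and the difference was -1.43 (SE 0.20, adjusted p = 5.62e-05) and -1.21 (SE 0.20, adjusted p = 2.97e-04) in the WT and mutant lines.

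Neighbouring genes within 250 kb of this cluster, a window chosen after the values were seen, were read from the same fit. Those tested, Casd1, Pon2, Pon3 and Asb4, are all on the separate list of further imprinted genes described below. Casd1, on the far side of Sgce, was lower in naïve ESCs, at -1.30 and -1.27 in the WT and mutant lines (SE 0.23, adjusted p = 4.15e-04 and 5.4e-04). Pon2, beyond Ppp1r9a, was also lower, at -0.82 and -1.08 (SE 0.18, adjusted p = 0.00278 and 3.39e-04). Pon3, which lies between Ppp1r9a and Pon2, was at 0.65 (adjusted p = 0.0308) in the WT line, higher in naïve ESCs, and at 0.38 (adjusted p = 0.196) in the mutant line. Both primed groups lay below the filter level with 2 to 10 reads, so Pon3 was tested because of its naïve level. The call in the WT line was lost without the filter (adjusted p = 0.0771) and without any of naïve WT replicates 1 or 2 or primed WT replicates 1 to 3, at 0.53 to 0.66 (adjusted p = 0.0605 to 0.118). Asb4 was at -0.48 (adjusted p = 0.140) and -1.01 (adjusted p = 0.00521).

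**Figure D2:**
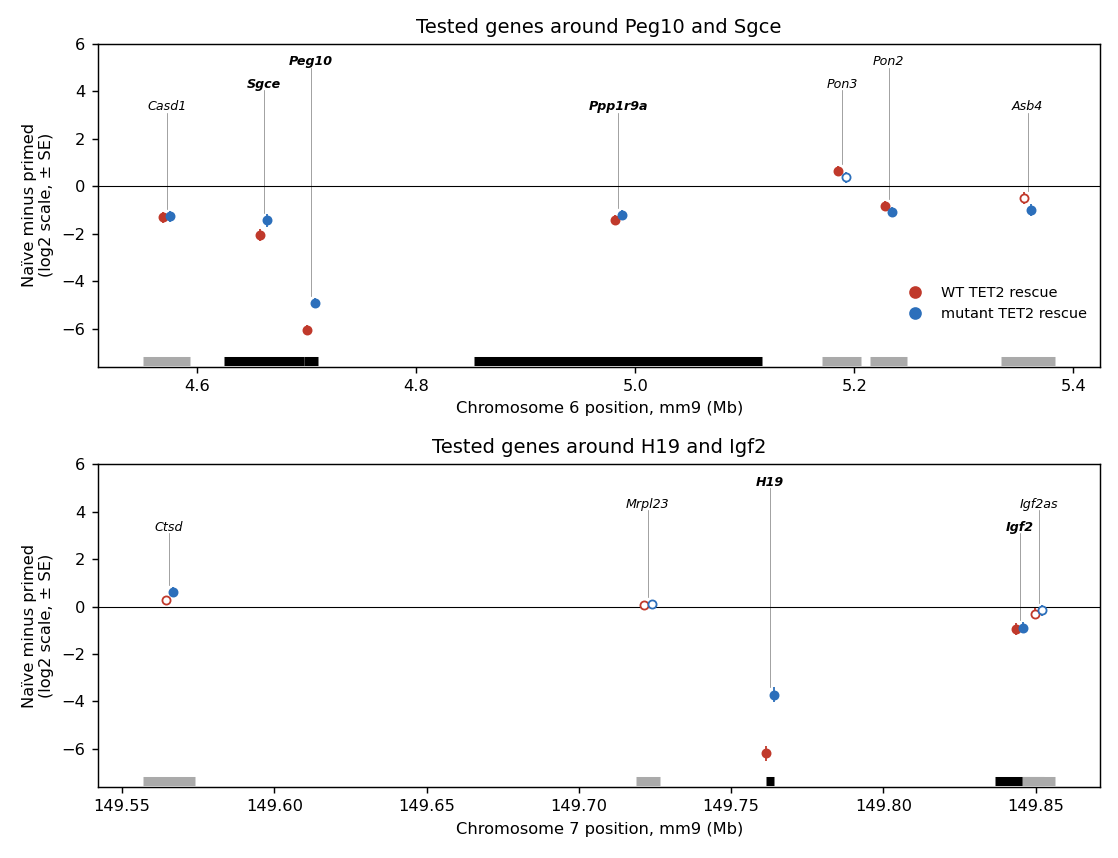
Naïve minus primed difference (vertical axis, log2 scale, ± SE) of all tested genes within 250 kb of the Peg10 and Sgce cluster on chromosome 6 and of H19 and Igf2 on chromosome 7, placed by their mm9 position (horizontal axis, Mb), in the WT (red) and mutant (blue) rescue lines; open points had an adjusted p of 0.05 or more, and bars at the bottom mark gene extents, black for listed imprinted genes and grey for others. Peg10 and H19 stand out from their neighbours, of which Casd1 is at -1.30 and Mrpl23 at 0.05 in the WT line. Casd1, Pon2, Pon3 and Asb4, drawn in grey, are on the separate list of further imprinted genes.

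H19, a maternally expressed long non-coding RNA, and Igf2, the paternally expressed fetal growth factor, share a control region whose paternal copy is methylated. H19 (chr7:149761434-149764048, minus strand) stood at 4.89, 3.81 and 3.81 in naïve WT, 5.09, 5.04 and 5.01 in naïve mutant, 10.35, 10.17 and 10.55 in primed WT and 8.89, 9.34 and 8.06 in primed mutant libraries. Reads numbered 7, 0 and 0 in naïve WT, 14, 10 and 18 in naïve mutant, 871, 934 and 2769 in primed WT and 324, 575 and 226 in primed mutant libraries, so H19 was at or near the floor in naïve ESCs and abundant in all primed libraries. The difference was -6.19 in the WT line (SE 0.30, adjusted p = 9.64e-10) and -3.71 in the mutant line (SE 0.30, adjusted p = 2.24e-07). Limma-voom on the reads gave -9.95 and -5.15, the former resting on a naïve group with reads in a single library and on the offset added to zeros.

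Igf2 (chr7:149836673-149852721) stood at 6.53, 5.90 and 5.88 in naïve WT, 6.20, 6.08 and 5.86 in naïve mutant, 6.72, 7.24 and 7.19 in primed WT and 6.77, 7.33 and 6.69 in primed mutant libraries. All primed libraries lay above all naïve libraries. Its difference of -0.95 in the WT line (SE 0.23, adjusted p = 0.00496) and -0.89 in the mutant line (SE 0.23, adjusted p = 0.00766) had the same sign as that of H19. Without primed mutant replicate 2 the call in the mutant line was lost, at -0.69 (adjusted p = 0.0522). Igf2as overlaps 1.78% of the Igf2 exons on the other strand, which unstranded reads cannot separate, and was not called in either line, nor was Mrpl23 on the other side of H19. Ctsd, beyond Mrpl23, was higher in naïve ESCs in the mutant line (0.62, adjusted p = 0.0245) and was at 0.26 (adjusted p = 0.324) in the WT line. Its call was lost without the filter (adjusted p = 0.0923) and without naïve mutant replicates 1 or 2 or primed mutant replicate 3, at 0.43 to 0.62 (adjusted p = 0.0619 to 0.137).

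Igf2r encodes the receptor that clears IGF2 and is maternally expressed (chr17:12875272-12962530). It stood at 10.95, 9.93 and 10.17 in naïve WT, 10.75, 9.86 and 10.38 in naïve mutant, 10.32, 9.81 and 10.09 in primed WT and 8.94, 9.43 and 9.36 in primed mutant libraries. The primed mutant libraries were lowest and did not overlap the naïve mutant libraries, whereas the media overlapped in the WT line. Igf2r was higher in naïve ESCs by 1.09 in the mutant line (SE 0.26, adjusted p = 0.00388), and the value in the WT line was 0.28 (SE 0.26, adjusted p = 0.421). The difference between the lines in this respect was -0.81 (SE 0.36, adjusted p = 0.976), which did not pass the test. Airn, the paternal non-coding RNA that silences Igf2r in other tissues, had 0 to 2 reads in every library.

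Mest encodes a protein of the alpha/beta hydrolase fold and is paternally expressed (chr6:30673547-30698457). It stood at 9.27, 9.50 and 9.69 in naïve WT, 9.27, 9.61 and 9.51 in naïve mutant, 11.52, 11.53 and 11.42 in primed WT and 11.46, 11.83 and 11.52 in primed mutant libraries. The media were far apart and the lines close together. Mest was lower in naïve ESCs, at -2.0 in the WT line (SE 0.16, adjusted p = 1.34e-07) and -2.14 in the mutant line (SE 0.16, adjusted p = 9.76e-08), which in normalised reads is a primed mean 4.09 and 4.55 times the naïve mean. Copg2 shares 904 bases of exon with Mest on the opposite strand, or 23.0% of the Mest exons, and its own difference of -0.23 and -0.35 was not called in either line.

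The Snrpn cluster on chromosome 7, the region affected in Prader-Willi and Angelman syndromes, has a maternally methylated control region at Snrpn. Snrpn, which encodes the spliceosomal protein SmN (chr7:67127388-67285105, minus strand), stood at 10.18, 10.60 and 10.37 in naïve WT, 10.19, 10.46 and 10.38 in naïve mutant, 11.89, 12.06 and 11.76 in primed WT and 12.14, 12.21 and 11.89 in primed mutant libraries. Primed libraries were all above naïve ones, and the difference was -1.52 in the WT line (SE 0.16, adjusted p = 2.15e-06) and -1.74 in the mutant line (SE 0.16, adjusted p = 6.21e-07). Peg12, a paternally expressed gene of the Frat family (chr7:69606757-69609396), stood at 6.19, 5.72 and 5.98 in naïve WT, 6.04, 6.19 and 6.08 in naïve mutant, 6.95, 7.35 and 7.13 in primed WT and 6.94, 6.97 and 6.63 in primed mutant libraries. These groups did not overlap between media, and Peg12 was lower in naïve ESCs, at -1.18 (SE 0.19, adjusted p = 1.74e-04) and -0.75 (SE 0.19, adjusted p = 0.00611).

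Ndn, which encodes the MAGE family protein necdin (chr7:69493163-69494814), stood at 7.73, 7.63 and 6.88 in naïve WT, 7.84, 7.99 and 7.18 in naïve mutant, 8.54, 8.47 and 8.26 in primed WT and 8.79, 8.41 and 8.22 in primed mutant libraries. Naïve replicate 3 was lowest in both lines, and the media did not overlap in either. The difference was -1.01 in the WT line (SE 0.25, adjusted p = 0.00487) and -0.80 in the mutant line (SE 0.25, adjusted p = 0.0194). The call in the mutant line was lost without the filter on low values (adjusted p = 0.0888) and without naïve mutant replicate 3 or primed mutant replicate 1, at -0.64 to -0.56 (adjusted p = 0.0808 to 0.0925). Magel2 had 0 to 6 reads in naïve and 6 to 32 in primed libraries and was not tested. Mkrn3, an E3 ligase gene between Magel2 and Peg12, was at -0.27 and -0.47 (adjusted p = 0.314 and 0.0819), and the maternally expressed E3 ligase gene Ube3a at 0.16 and -0.34 (adjusted p = 0.463 and 0.115).

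**Figure D3:**
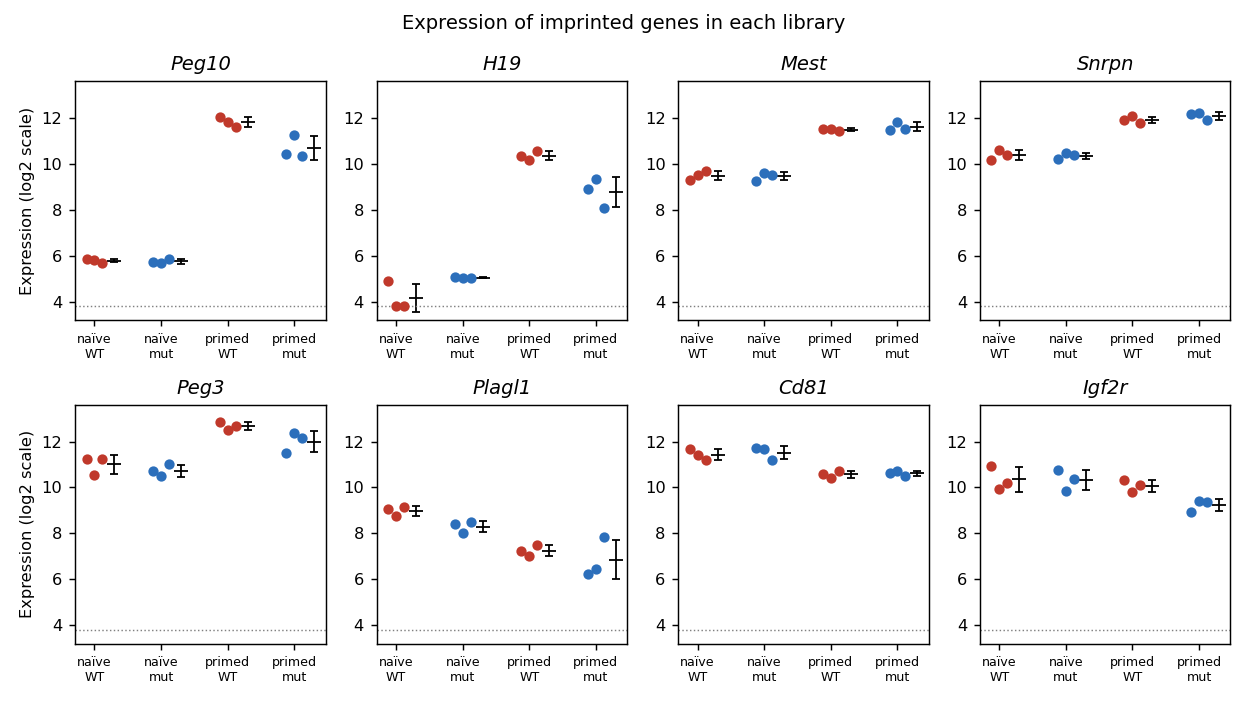
Expression (vertical axis, authors' variance-stabilised values on a log2 scale) of 8 imprinted genes in each of the 12 libraries, by medium and rescue line (WT red, mutant blue); points are libraries in replicate order, black bars are the mean ± SD of 3, and the dotted line at 3.81 is the value of a gene without reads. Peg10, H19, Mest, Snrpn and Peg3 are higher in primed and Plagl1 and Cd81 higher in naïve ESCs, while Igf2r is lowest in primed mutant libraries.

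Peg3, a paternally expressed zinc finger gene (chr7:6656603-6683132), and Usp29, a paternally expressed gene for a ubiquitin-specific protease (chr7:6913871-6916480), are transcribed in opposite directions from a shared control region. Peg3 stood at 11.23, 10.54 and 11.25 in naïve WT, 10.70, 10.49 and 11.01 in naïve mutant, 12.86, 12.51 and 12.66 in primed WT and 11.48, 12.37 and 12.15 in primed mutant libraries. All naïve libraries were below all primed libraries, with primed mutant replicate 1 the lowest of the latter. The difference was -1.67 in the WT line (SE 0.23, adjusted p = 4.34e-05) and -1.27 in the mutant line (SE 0.23, adjusted p = 5.78e-04).

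Usp29 stood at 6.93, 7.07 and 6.96 in naïve WT, 6.44, 6.56 and 6.84 in naïve mutant, 7.70, 7.68 and 7.58 in primed WT and 7.08, 7.06 and 7.86 in primed mutant libraries. Within each line the media did not overlap, and the difference was -0.66 (SE 0.21, adjusted p = 0.0215) in the WT line and -0.72 (SE 0.21, adjusted p = 0.0145) in the mutant line. The call in the WT line was lost without the filter (adjusted p = 0.0580) and without naïve WT replicate 1, primed WT replicate 1 or primed WT replicate 2, at -0.65 to -0.64 (adjusted p = 0.0513 to 0.0715). In the mutant line it was lost without naïve mutant replicate 1, at -0.63 (adjusted p = 0.0644), and without primed mutant replicate 3, at -0.46 (adjusted p = 0.0639). Zim1, the maternally expressed gene of the cluster, had 0 to 5 reads in naïve and 4 to 24 in primed libraries and was not tested.

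Plagl1 was higher in naïve ESCs in both lines. It encodes a zinc finger transcription factor that inhibits growth and is paternally expressed (chr10:12810497-12851500). Plagl1 stood at 9.04, 8.75 and 9.13 in naïve WT, 8.39, 8.03 and 8.48 in naïve mutant, 7.22, 7.02 and 7.51 in primed WT and 6.26, 6.46 and 7.82 in primed mutant libraries. Primed mutant replicate 3 was well above its group, yet the media did not overlap in either line. The difference was 1.73 in the WT line (SE 0.30, adjusted p = 3.93e-04) and 1.45 in the mutant line (SE 0.30, adjusted p = 0.00163).

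Promoters of these genes were searched for TGCCGC, the letters recognised by ZFP57, on both strands in the 250 bases before and 50 after each RefSeq start (GRCm38.p6), since control regions of Mest, Snrpn and Plagl1 cover a promoter. Of 42 members 34 matched the RefSeq table. A window with the motif was found for 11 of them, or 32.4%, and for 13.1% of the 27025 genes in the table. Taking the window with most CpG of each gene, members also held more CpG, with a median of 17 against 8 over all genes, and a match is a description of the letters only. By window, 24% of 50 member windows and 11.6% of all windows held it. Mest windows starting at 30737800 and 30737803 overlap, hold the same 2 matches and were both counted. Of the 11 genes, Mest, Snrpn, Igf2 and Nnat were called lower and Plagl1 and Commd1 higher in naïve ESCs in both lines. Windows of Mest, Snrpn and Plagl1, picked after the matches were seen, are shown with the motif, or its reverse complement, in capitals, written 5′ to 3′ along the gene. The Mest window shown (chr6:30737800-30738099, plus strand) holds 2 matches, the Snrpn window (chr7:60005150-60005449, minus strand) 1 and the Plagl1 window (chr10:13090582-13090881, plus strand) 1. The other Snrpn windows, starting at 60047929, 60140176 and 60450128, and the Mest window starting at 30733256 hold 0.
Mest: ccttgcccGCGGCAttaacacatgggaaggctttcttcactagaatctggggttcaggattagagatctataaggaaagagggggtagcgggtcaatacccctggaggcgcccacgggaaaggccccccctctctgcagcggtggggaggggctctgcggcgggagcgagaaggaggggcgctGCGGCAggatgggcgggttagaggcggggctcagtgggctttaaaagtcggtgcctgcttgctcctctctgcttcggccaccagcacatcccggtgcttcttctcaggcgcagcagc
Snrpn: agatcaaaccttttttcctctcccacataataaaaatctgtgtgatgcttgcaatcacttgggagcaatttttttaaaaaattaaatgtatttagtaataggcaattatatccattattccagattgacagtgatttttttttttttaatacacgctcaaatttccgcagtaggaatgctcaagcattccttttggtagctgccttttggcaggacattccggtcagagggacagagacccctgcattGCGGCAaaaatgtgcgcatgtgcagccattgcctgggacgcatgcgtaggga
Plagl1: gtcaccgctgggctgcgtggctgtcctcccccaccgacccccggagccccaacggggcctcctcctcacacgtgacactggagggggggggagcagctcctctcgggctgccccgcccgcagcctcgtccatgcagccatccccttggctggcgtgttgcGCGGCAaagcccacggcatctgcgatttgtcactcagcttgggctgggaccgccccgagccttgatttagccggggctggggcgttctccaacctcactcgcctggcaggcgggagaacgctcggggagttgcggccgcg
Windows of Peg3 and Usp29 share 263 bases and hold no match. H19, Peg10, Sgce, Rtl1, Cdkn1c, Impact, Nespas and Peg13 were not matched.

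The Kcnq1ot1 cluster on chromosome 7 moved in both directions. Its protein-coding members are maternally expressed and silenced on the paternal copy by the non-coding RNA Kcnq1ot1. Cd81, a tetraspanin gene (chr7:150238644-150253839), stood at 11.69, 11.39 and 11.19 in naïve WT, 11.70, 11.66 and 11.18 in naïve mutant, 10.59, 10.42 and 10.70 in primed WT and 10.61, 10.72 and 10.51 in primed mutant libraries. The naïve libraries were all higher, by 0.85 in the WT line (SE 0.17, adjusted p = 0.00120) and 0.90 in the mutant line (SE 0.17, adjusted p = 8.6e-04). Slc22a18, a solute carrier gene (chr7:150659626-150685239), stood at 6.22, 6.21 and 5.47 in naïve WT, 6.04, 6.15 and 5.84 in naïve mutant, 5.23, 4.90 and 4.97 in primed WT and 4.80, 4.98 and 4.84 in primed mutant libraries. Its 20 to 57 naïve reads and 5 to 18 primed reads gave a higher naïve level without overlap, by 0.93 (SE 0.21, adjusted p = 0.00286) and 1.14 (SE 0.21, adjusted p = 6.93e-04), and by 1.79 and 2.18 with limma-voom on the reads.

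Phlda2 limits placental growth and lies next to Slc22a18 (chr7:150687450-150688446). It stood at 7.23, 7.29 and 7.10 in naïve WT, 7.02, 7.55 and 7.50 in naïve mutant, 8.41, 8.74 and 7.96 in primed WT and 8.80, 9.23 and 7.92 in primed mutant libraries. The naïve libraries were the lower ones, unlike those of Slc22a18, at -1.16 in the WT line (SE 0.28, adjusted p = 0.00405) and -1.29 in the mutant line (SE 0.28, adjusted p = 0.00200). Ascl2, a basic helix-loop-helix factor of the trophoblast (chr7:150152727-150155169), stood at 6.12, 5.56 and 5.31 in naïve WT, 5.54, 6.17 and 5.59 in naïve mutant, 6.68, 6.71 and 6.69 in primed WT and 6.43, 6.57 and 6.37 in primed mutant libraries. It was lower in naïve ESCs without overlap, at -1.03 (SE 0.22, adjusted p = 0.00195) and -0.69 (SE 0.22, adjusted p = 0.0235), and at -1.59 and -1.13 with limma-voom. The call in the mutant line was lost without the filter (adjusted p = 0.0745) and without naïve mutant replicate 1 or 3 or primed mutant replicate 2, at -0.64 to -0.58 (adjusted p = 0.0741 to 0.101). Cdkn1c, the gene of the cell cycle inhibitor p57, was at -0.81 (adjusted p = 0.0285) and -0.83 (adjusted p = 0.0248), and each call was lost without the filter (adjusted p = 0.131 and 0.119) and on leaving out any of 4 libraries. Those were naïve WT replicates 2 and 3 and primed WT replicates 1 and 2 (-0.83 to -0.63, adjusted p = 0.0566 to 0.140), and naïve mutant replicates 1 and 3 and primed mutant replicates 1 and 2 (-0.77 to -0.60, adjusted p = 0.0699 to 0.136).

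Nnat encodes the small membrane protein neuronatin and lies within an intron of Blcap (chr2:157385814-157388258). It stood at 5.52, 6.0 and 5.85 in naïve WT, 5.54, 6.34 and 6.40 in naïve mutant, 7.17, 7.25 and 7.10 in primed WT and 7.64, 8.27 and 6.92 in primed mutant libraries. Nnat was lower in all naïve libraries, at -1.38 in the WT line (SE 0.29, adjusted p = 0.00168) and -1.52 in the mutant line (SE 0.29, adjusted p = 8.87e-04). Its host gene Blcap, with which it shares no exon base, was at 0.12 and 0.23 and was not called (adjusted p = 0.638 and 0.323).

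Commd1, a COMM domain gene involved in copper handling (chr11:22734744-22882382), spans the paternally expressed retrogene Zrsr1 on the other strand. Commd1 stood at 11.35, 11.72 and 11.59 in naïve WT, 11.76, 12.10 and 11.81 in naïve mutant, 10.78, 11.06 and 10.81 in primed WT and 11.45, 11.32 and 11.38 in primed mutant libraries. Naïve libraries were higher within each line without overlap, by 0.67 in the WT line (SE 0.15, adjusted p = 0.00288) and 0.50 in the mutant line (SE 0.15, adjusted p = 0.0169). The call in the mutant line was lost without naïve mutant replicate 2 or primed mutant replicate 2, at 0.40 to 0.47 (adjusted p = 0.0655 to 0.0877). B3gnt2 shares 29.2% of the Commd1 exon bases on the same strand, so the counts of these 2 genes are uncertain. Zrsr1 shares 203 exon bases with Commd1, or 6.18% of the Zrsr1 and 2.42% of the Commd1 exons, which unstranded reads cannot separate. Zrsr1 was at -0.17 and -0.26 and was not called (adjusted p = 0.524 and 0.329).

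Inpp5f, an inositol phosphatase gene of which a short form is imprinted (chr7:135754842-135839939), stood at 9.27, 8.91 and 9.13 in naïve WT, 8.59, 8.48 and 8.55 in naïve mutant, 8.36, 8.56 and 8.28 in primed WT and 8.06, 8.08 and 8.46 in primed mutant libraries. Naïve WT libraries were the highest. It was higher in naïve ESCs by 0.70 in the WT line (SE 0.17, adjusted p = 0.00389), and the value in the mutant line was 0.34 (SE 0.17, adjusted p = 0.127). The difference between these was 0.36 (SE 0.24, adjusted p = 0.976) and did not pass the test, and the counts do not separate the short form.

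The Dlk1 and Meg3 cluster on chromosome 12 has a paternally methylated control region and was variable between replicates. Dlk1, a delta-like membrane protein gene, had 1 to 17 reads in naïve and 15 to 39 in primed libraries, with a difference of -0.76 (adjusted p = 0.0174) and -0.74 (adjusted p = 0.0210). Both calls were lost without the filter (adjusted p = 0.0635 and 0.0713), and that in the WT line also without naïve WT replicate 3 (-0.49, adjusted p = 0.0900) or primed WT replicate 1 (-0.76, adjusted p = 0.0507). In the mutant line it was lost without naïve mutant replicates 2 or 3 or primed mutant replicate 2, at -0.70 to -0.62 (adjusted p = 0.0538 to 0.0907). Rtl1, a retrotransposon-derived gene of the placenta, had 1 to 4 reads in naïve WT and 15 to 41 in primed WT libraries. It was lower in naïve ESCs in the WT line (-1.12, adjusted p = 0.0151), and limma-voom on the reads gave -2.84. The limma call was lost without the filter (adjusted p = 0.101) and without naïve WT replicate 2 or primed WT replicate 1 (-0.98 to -0.97, adjusted p = 0.0597 to 0.0687). In the mutant line Rtl1 was at -0.45 (adjusted p = 0.312), with 2 to 32 reads in naïve and 4 to 39 in primed libraries.

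Meg3, the maternally expressed long non-coding RNA of the cluster, stood at 6.97, 6.82 and 8.20 in naïve WT and 7.23, 7.29 and 8.79 in naïve mutant libraries, and at 8.12, 8.02 and 8.50 in primed WT and 7.91, 8.67 and 7.82 in primed mutant libraries. Naïve replicate 3 was above the other naïve libraries in both lines, and the media overlapped. Its difference was -0.88 (SE 0.39, adjusted p = 0.0909) in the WT line and -0.37 (SE 0.39, adjusted p = 0.497) in the mutant line. The small RNA hosts Rian (0.27 and 0.21) and Mirg (-0.15 and -0.68) were not called.

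At the Gnas locus the antisense RNA Nespas was lower in naïve ESCs in the mutant line (-1.15, adjusted p = 0.0151), where the media overlapped, and was at -0.85 (adjusted p = 0.0596) in the WT line. The call was lost without the filter (adjusted p = 0.105) and without naïve mutant replicate 1 or 2 or primed mutant replicate 2, at -1.04 to -0.90 (adjusted p = 0.0610 to 0.0861). Gnas shares 31.4% of the Nespas exon bases on the other strand and was not called. H13, a signal peptide peptidase gene, was lower in naïve ESCs in the WT line (-0.58, adjusted p = 0.0311), a call lost without the filter (adjusted p = 0.0659) and without naïve WT replicate 1 or primed WT replicates 1 or 3, at -0.54 to -0.40 (adjusted p = 0.101 to 0.139). In the mutant line H13 was at -0.51 (adjusted p = 0.0545), and its intronic retrogene Mcts2 was not called. Grb10, Impact and Zdbf2 make up the rest of the 12 members not called in any comparison, with Zdbf2 at -0.50 and -0.77.

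Per length of exon, levels of the imprinted genes spanned a wide range. In RPKM, which divides by exon length and depth, Cd81 was the highest member in naïve WT ESCs at 101 ± 20.5 (SD, n = 3), followed by Impact at 53.0 ± 2.43 and Snrpn at 49.7 ± 7.01, the last 2 within their spread of each other. Snrpn was the highest in primed WT ESCs at 149 ± 12.9 (SD, n = 3), followed by Mest at 62.0 ± 1.07 and Cd81 at 56.8 ± 6.86. H19 stood at 0.0975 ± 0.169 in naïve WT and 46.8 ± 7.34 in primed WT ESCs. Peg10 went from 0.381 to 46.6 ± 5.89 in the same groups, so both were among the highest 6 members in primed WT ESCs. In primed mutant ESCs they stood lower, at 15.3 for H19 and 21.2 for Peg10, below 8 members or more. Summed over members, RPM were 1624 to 1882 in naïve, 2770 to 2879 in primed WT and 2098 to 2772 in primed mutant libraries.

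The rescue lines, all under the Setdb1 shRNA, were compared next. They differ in the form of TET2, in Tet2 RNA and as cell lines, so a difference cannot be assigned to catalytic activity alone. In naïve ESCs 0 of 37 imprinted genes were called with limma (0.0987% of all genes, or 14), and limma-voom also called 0. Unadjusted p was under 0.05 for 7 members (13.3% of all genes), and the lines did not overlap for 7 (16.8% of all genes). Same-numbered naïve libraries correlated between the lines, and with the number as a block 36 genes were called in place of 14, again with no member among them. Among the members by unadjusted p were Inpp5f at 0.56 (SE 0.17, adjusted p = 0.262), Plagl1 at 0.68 (SE 0.30, adjusted p = 0.357) and H19 at -0.88 (SE 0.30, adjusted p = 0.281).

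In primed ESCs 2 of 37 imprinted genes were called (0.254% of all genes, or 36), Peg10 and H19, both higher with WT TET2 (0.204% of all genes). Peg10 was at 11.82 ± 0.21 in primed WT and 10.68 ± 0.51 in primed mutant libraries (SD, n = 3 each), and all WT libraries lay above all mutant ones. The difference was 1.14 (SE 0.21, adjusted p = 0.0303), or 2.15 times in normalised reads. It was lost without any of primed WT replicates 1 to 3 or primed mutant replicates 1 or 3, at 0.98 to 1.25 (adjusted p = 0.0510 to 0.242), without the filter (adjusted p = 0.171) and with the 6 primed libraries alone (adjusted p = 0.0962). H19 was at 10.36 ± 0.19 in primed WT and 8.76 ± 0.65 in primed mutant libraries, again without overlap. Its difference of 1.60 (SE 0.30, adjusted p = 0.0323) is 2.97 times in normalised reads. That call was lost without the same 5 libraries or without naïve mutant replicates 1 or 2, at 1.25 to 1.69 (adjusted p = 0.0515 to 0.166), without the filter (adjusted p = 0.250) and with the 6 primed libraries alone (adjusted p = 0.0616).

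Other members were below the threshold between primed lines in the fit without a block. Over all 37 members, Peg10 and H19 included, unadjusted p was under 0.05 for 7 (16.2% of all genes), and 10 did not overlap (22.4% of all genes). Igf2r was at 0.83 (SE 0.26, adjusted p = 0.193), higher in all 3 WT libraries. Peg3 was at 0.68 (SE 0.23, adjusted p = 0.211) and Sgce, the neighbour of Peg10, at 0.61 (SE 0.26, adjusted p = 0.274), both without overlap. Commd1 went the other way at -0.50 (SE 0.15, adjusted p = 0.184). Of 5 epiblast markers tested, 0 were called between the primed lines with limma, 0 with limma-voom, and 0 had an unadjusted p under 0.05. Their sum, carried by Dnmt3b (0.55) and Dnmt3l (0.34), was higher in all primed WT libraries, at 1058 to 1100 RPM, than in primed mutant libraries, at 596 to 1044. Otx2 (-0.58), Pou3f1 (-0.32) and Lef1 (-0.14) lay on the other side. Of the other sums, mesoderm (11.3 to 17.4 against 10.2 to 11) and endoderm (7.36 to 8.07 against 4.90 to 7.0) were higher in all WT libraries, although Gata4 on the endoderm list was lower in all of them (-0.51, adjusted p = 0.234). The fibroblast sum was lower in all WT libraries (2.48 to 3.37 against 3.73 to 4.90), with Lum at -0.55 and Thy1 at 0.03, neither called. The part of such cells in the values of imprinted genes was not tested.

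Whether the response to the medium differed between lines was tested as an interaction. None of 37 members was called (0.0% of all genes, that is 0 of 14185), nor with limma-voom, and 4 had an unadjusted p under 0.05 (3.45% of all genes). H19 had the largest value, -2.48 (SE 0.43, adjusted p = 0.348), since its fall from primed to naïve ESCs was larger in the WT line. Without naïve WT replicate 1, the only naïve WT library with H19 reads, this became a call at adjusted p = 0.0143, the lowest over all alternatives, which reached 1.00. For Peg10 the value was -1.11 (SE 0.30, adjusted p = 0.976).

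Including the TET dioxygenase genes Tet1, Tet2 and Tet3, a list of 30 genes that act on imprints was read beside the members. Of these 29 were found in the table and 28 tested. In the WT line 10 were called, or 35.7% of those tested against 35.9% of all genes, 1 higher in naïve ESCs, the zygotic methylation protector Dppa3 (1.01, adjusted p = 0.0145), and 9 lower. In the mutant line 11 were called (35.2% of all genes), all lower (16.9% of all genes lower). The call of Dppa3 was lost without the filter (adjusted p = 0.107) and without naïve WT replicate 2 or primed WT replicate 3, at 0.75 to 0.89 (adjusted p = 0.0543 to 0.0886). Both lines called 8 genes, all lower in naïve ESCs (12.4% of all genes). These were Dnmt3a, Dnmt3b, Dnmt3l, Trim28, Ehmt1, Daxx, Zfp42 and Tet2, the last with reads of the construct included. The cofactor of de novo methylation Dnmt3l was at -5.18 and -5.17 (SE 0.24, adjusted p = 6.13e-10 and 8.62e-10). The de novo methyltransferase gene Dnmt3b was at -2.21 and -2.45 (adjusted p = 1.55e-05 and 6.16e-06), and Dnmt3a at -0.91 and -1.30 (adjusted p = 0.00153 and 7.27e-05).

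Trim28, the corepressor that brings SETDB1 to ZFP57, was lower in naïve ESCs, at -0.94 and -1.08 (adjusted p = 9.74e-04 and 3.41e-04). Zfp57 was at -0.48 (adjusted p = 0.119) in the WT line and -0.66 (adjusted p = 0.0369) in the mutant line, lower in naïve ESCs by the latter test. That call was lost without the filter (adjusted p = 0.150), with quantile normalization (adjusted p = 0.0701) and without naïve mutant replicates 1 or 2 or primed mutant replicates 1 or 3, at -0.71 to -0.45 (adjusted p = 0.0525 to 0.188). The H3K9 methyltransferase gene Ehmt1 was at -0.57 and -0.48, the histone chaperone gene Daxx at -0.70 and -0.63, and the zinc finger gene Zfp42 at -0.94 and -1.29. Ehmt1 lost its call in the mutant line with the 6 libraries alone (adjusted p = 0.0637) and without naïve mutant replicates 1 or 2 or primed mutant replicate 2, at -0.45 to -0.36 (adjusted p = 0.0698 to 0.123). Zfp42 lost its call in the WT line without the filter (adjusted p = 0.0823) and without naïve WT replicate 1, at -0.65 (adjusted p = 0.0595). Tet2 was at -1.55 and -1.87, construct included. Between the rescue lines only Tet2 of the 28 was called, in naïve (1 gene) and in primed ESCs (1 gene).

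Further imprinted genes, 40 listed, 37 found and 24 tested, did not lean to one side. In the WT line 14 were called (35.9% of all genes), 8 higher (18.6%) and 6 lower (17.3%) in naïve ESCs. The mutant line also called 14 (35.2%), 7 higher (18.3%) and 7 lower (16.9%). Their median difference was 0.07 and -0.14. Both lines called 6 as higher (13.7%) and 5 as lower (12.4%). The largest among the former were the actin nucleator gene Cobl at 3.06 and 2.62 (SE 0.30, adjusted p = 1.24e-06 and 6.7e-06), the AMP deaminase gene Ampd3 at 2.24 and 2.62, and the sterol reductase gene Dhcr7 at 1.65 and 1.84. The largest among the latter were the Polycomb-related gene Sfmbt2 at -1.77 and -1.61 (SE 0.30, adjusted p = 2.96e-04 and 7.02e-04), and Casd1 and Pon2 beside Peg10. Among the shared calls, Sgk1 (higher) lost that in the mutant line without any of 8 libraries (0.31 to 0.57, adjusted p = 0.0502 to 0.252). It was also lost with either other filter, without the trend, with median centring, with the block and with the 6 libraries alone. Slc38a4 (lower) lost that in the WT line with the block (adjusted p = 0.0554) and without any of 5 libraries (-0.49 to -0.39, adjusted p = 0.0539 to 0.102). None of the 24 was called between rescue lines in either medium with limma or with limma-voom (0 in each), and 3 had an unadjusted p under 0.05 in naïve (13.3% of all genes) and 4 in primed ESCs (16.2%).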

How the data were processed

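The authors trimmed the reads with Trim Galore 0.3.3, aligned them to mm9 with TopHat2 2.0.9 and deposited log2 values for 26061 genes after variance stabilisation with DESeq2. Whole read counts were recovered by inverting that transform. Every value fell within 0.02 reads of a whole number, and libraries held a median of 9790961 (primed WT) to 14322507 (naïve mutant) reads per group. The deposited values of repeat classes were not used.

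All 4 groups of 3 libraries were fitted together with limma 3.58.1 in R 4.3.3 with an intensity trend and Benjamini-Hochberg adjustment over the 14185 genes tested. The smallest p an exact permutation of 3 against 3 can give is 0.1. The method was tested on simulated data. Tables and figures were made in Python 3.11.15. The alternatives were limma-voom on the recovered reads, no filter or a stricter filter of 2 above the floor, quantile normalization, centring on the library median, no intensity trend, the 6 compared libraries alone, the replicate number as a block and leaving out each library in turn.

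Deviations of same-numbered naïve libraries correlated between the rescue lines (r = 0.30 to 0.59). The numbers may therefore pair the naïve WT and mutant libraries, on the evidence of these few values alone.

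The members and lists (imprint regulators, further imprinted genes and cell type markers) were chosen with earlier results of these data known. Library values are given for the 20 members with the smallest adjusted p between any 2 groups and for those called between rescue lines. Regulators are named where called between rescue lines or in both lines between media, and further imprinted genes by the 3 largest calls in each direction. Dppa3, Zfp57, Meg3, single cell type markers and the neighbours of clusters were chosen after their values were seen. Exon lengths and overlaps are from GENCODE vM1.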

Additional observations from a re-analysis of the deposited data

Results flagged for a closer look

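For H19, each WT library was lower than each mutant library in naïve ESCs, and each was higher in primed ESCs. The naïve difference of -0.88 was not called (adjusted p = 0.281). The primed difference of 1.60 was called (adjusted p = 0.0323), but not without any of primed WT replicates 1 to 3, primed mutant replicates 1 or 3 or naïve mutant replicates 1 or 2 (1.25 to 1.69, adjusted p = 0.0515 to 0.166), without the filter or with the 6 primed libraries alone. The difference of these differences was -2.4767 on the log2 scale, with an adjusted p of 0.348 from limma, which misses the threshold. Naïve WT libraries held 7, 0 and 0 reads and naïve mutant libraries 14, 10 and 18. A difference in both media is therefore not shown.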

How the results depend on the processing

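Over the alternatives and members called, 437 of 456 values between media in the WT line, 412 of 437 in the mutant line and 24 of 40 between primed rescue lines kept their direction and call, and none turned direction. Between naïve rescue lines the count of genes called was 14, and 36 when blocked by replicate number, 9 with the 6 libraries alone and 5 to 22 on leaving out 1 library. Between primed rescue lines 36 genes were called, 209 with the block, 18 with the 6 libraries alone and 12 to 82 on leaving out 1 library. The 2 members called between primed lines became 0 without the filter, 0 with the 6 libraries alone and 0 to 2 on leaving out 1 library. Genes called for the interaction numbered 12 without the filter and 0 to 1 on leaving out 1 library. The member called there, in 0 to 1 of the cases, was H19 without naïve WT replicate 1. The cause was not tested.

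Same-numbered libraries correlated less in the other comparisons (mean r of 0.095 between primed lines, 0.12 and -0.09 between media in the WT and mutant lines). With the block, Igf2r was also called between primed lines (adjusted p = 0.0309), and members called between media numbered 25 and 23. With the block in the naïve comparison no member was called. Depth limits genes such as H19, Sgce, Dlk1 and Rtl1 in naïve libraries, where a few reads decide the value.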
